A study of Mus musculus with 15 samples.

Results

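The 28 genes described here make cholesterol and fatty acids or control the genes that do. They were chosen by name: 18 enzymes of the route from acetyl-CoA to cholesterol, 5 genes of the SREBP system that controls this route, 1 sterol transfer protein and 4 enzymes of fatty acid synthesis and desaturation. All 28 had a probe on the array and all 28 passed the filter on dim probes, among 21368 genes with a named probe and 14441 genes tested. The chosen probe of each was well above background on all 15 arrays.

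RNA from mouse embryonic stem cells, the self-renewing cells of the early embryo grown in culture, was measured on single-colour Agilent microarrays in 5 groups of 3 arrays. Wild-type cells carried no transgene. The other 4 groups all lacked the gene that the labels call Nat1, whose current symbol is Eif4g2 and which encodes a translation initiation factor related to eIF4G. These were null cells without a transgene, null cells with a tet-inducible Map3k3 transgene grown without doxycycline (Dox), the same Map3k3 cells grown with Dox, and null cells with a tet-inducible EGFP transgene grown with Dox. Map3k3 is a protein kinase at the head of a MAP kinase cascade, EGFP is a fluorescent control protein, and Dox is the drug that switches a tet-inducible transgene on. No group had wild-type cells with a transgene or with Dox, and EGFP cells without Dox were not analysed here. The labels name no clone, do not say that the null cells came from these wild-type cells, and do not say whether a group's 3 arrays came from separate cultures. The p-values below therefore speak only for the spread between these samples, which may be technical. All cells were grown in the same medium on gelatin.

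Cells make cholesterol from acetyl-CoA, first as mevalonate, then as farnesyl diphosphate and squalene, and last through a chain of sterols that begins with lanosterol. When membrane sterols run low, SCAP escorts the SREBP transcription factors from the endoplasmic reticulum to the Golgi, where they are cut, and the freed part turns on the genes of the route. When sterols are plentiful, the INSIG proteins hold SCAP back, and SREBP-1 also serves fatty acid synthesis.

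Levels below are log2 signal relative to the 75th percentile of the same array. Levels of different genes are not compared with each other, since each probe has its own brightness. Calls required an adjusted p under 0.05 in limma together with a difference of 1.5-fold or more, and only called genes are said to have risen or fallen. Eif4g2 read 4.14, 4.40 and 4.39 in wild-type cells and between 1.36 and 1.86 on the 12 arrays of the null lines, so the labels held for the targeted gene. The sources used here do not place the probe inside or outside the deletion. The embryonic stem cell label held too: all 8 markers of that cell type were well above background on every array. The 75th percentile signal ranged from 494 to 614 units. The share of probes detected well above background was 42.7% on array 2 of the Map3k3 cells with Dox, the lowest, and at most 53.9%. It was 53.6 to 53.9% on the wild-type arrays and 47.3 to 48.8% on the null arrays, without overlap. The wild-type and null arrays shared a slide but occupied its row 1 and row 2 respectively, so genotype and slide row cannot be told apart in that comparison. Of the null lines, EGFP array 3 shared both the slide and the row of the wild-type arrays.

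The promoters of 22 members were listed by RefSeq (GRCm38.p6), as windows from 250 bases before to 50 bases after a start site. They were searched on both strands for 3 motifs: the core of the sterol regulatory element bound by SREBP (TCACNCCAC), the NF-Y box (CCAAT, which reads ATTGG on the other strand) and the E-box (CACGTG). None of these motifs overlaps another in the windows printed here. Fdps, Fdft1, Sqle, Stard4, Scd1 and Scd2 had no window and were not searched. The 250 bases before the start are shown for 6 genes whose values the results turn on. Hmgcs1 was the only searched member with the sterol element core. Cyp51 had the largest difference between null and wild-type cells, and Tm7sf2 the largest between Map3k3 cells with Dox and wild-type cells. Ebp and Sc5d are shown for their levels in Map3k3 cells with Dox, and Insig1 for its spread between arrays. Capitals mark the motif matches, and each run reads 5′ to 3′ along the strand of the gene.
Hmgcs1: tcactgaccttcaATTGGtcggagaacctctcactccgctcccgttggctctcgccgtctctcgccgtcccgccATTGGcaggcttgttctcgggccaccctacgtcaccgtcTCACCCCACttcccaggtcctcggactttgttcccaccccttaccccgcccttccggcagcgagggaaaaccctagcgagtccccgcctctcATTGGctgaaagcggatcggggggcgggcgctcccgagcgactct
Cyp51: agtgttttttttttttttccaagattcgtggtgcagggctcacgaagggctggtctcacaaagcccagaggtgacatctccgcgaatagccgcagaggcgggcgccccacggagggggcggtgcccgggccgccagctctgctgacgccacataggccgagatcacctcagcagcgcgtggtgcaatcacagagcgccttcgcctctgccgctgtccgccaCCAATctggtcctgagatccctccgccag
Tm7sf2: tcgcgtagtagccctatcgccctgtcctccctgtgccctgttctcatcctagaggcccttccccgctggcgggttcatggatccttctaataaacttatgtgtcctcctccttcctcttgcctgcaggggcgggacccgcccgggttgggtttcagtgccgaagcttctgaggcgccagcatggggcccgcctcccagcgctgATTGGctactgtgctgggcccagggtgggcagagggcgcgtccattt
Ebp: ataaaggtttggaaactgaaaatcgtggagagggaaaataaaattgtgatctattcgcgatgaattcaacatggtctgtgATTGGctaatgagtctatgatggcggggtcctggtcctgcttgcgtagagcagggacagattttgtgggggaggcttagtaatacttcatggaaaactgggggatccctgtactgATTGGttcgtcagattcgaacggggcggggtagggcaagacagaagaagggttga
Sc5d: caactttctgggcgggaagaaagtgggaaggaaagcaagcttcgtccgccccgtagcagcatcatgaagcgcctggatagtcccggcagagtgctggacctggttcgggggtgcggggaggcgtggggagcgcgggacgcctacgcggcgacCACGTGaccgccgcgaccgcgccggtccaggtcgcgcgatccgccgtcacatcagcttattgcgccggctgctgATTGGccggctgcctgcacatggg
Insig1: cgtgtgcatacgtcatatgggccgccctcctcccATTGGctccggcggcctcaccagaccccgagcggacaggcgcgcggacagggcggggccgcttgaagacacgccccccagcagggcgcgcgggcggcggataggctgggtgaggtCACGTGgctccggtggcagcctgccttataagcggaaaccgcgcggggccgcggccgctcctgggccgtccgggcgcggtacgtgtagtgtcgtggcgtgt

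The Hmgcs1 run is chr13:119690101-119690350 (plus strand), the Cyp51 run chr5:4104698-4104947 (minus strand), the Tm7sf2 run chr19:6067851-6068100 (minus strand), the Ebp run chrX:8193513-8193762 (minus strand), the Sc5d run chr9:42264301-42264550 (minus strand) and the Insig1 run chr5:28071162-28071411 (plus strand). The sterol element core of Hmgcs1 begins 137 bases before the start, between NF-Y boxes at 176 and 45 bases. It was found in 1 of the 22 member genes and in 1.44% of 27025 genes with a window. The NF-Y box was found in 19 of 22 member genes (86.4%) and in 41.1% of all genes, and the E-box in 5 of 22 (22.7%) and in 8.09%. Some genes have several windows. Counted by window, the NF-Y box was in 20 of 30 member windows (66.7%) and in 37.4% of 32851, the E-box in 6 (20.0%) and in 7.15%, and the sterol element core in 1 (3.33%) and in 1.24%. Of the 9 genes with a window that rose in null cells, 7 held an NF-Y box, and of the 13 other members with a window 12 did. The NF-Y box was thus present among members that rose and among those that did not.

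The comparison of null with wild-type cells addresses what goes with loss of the gene labelled Nat1. Cholesterol synthesis genes were higher in null cells at several steps of the route, though not at Mvd, a mevalonate step, or at Sc5d and Dhcr7 near its end. The difference at Lss did not pass the adjusted p. Pmvk and Cyp51 rose at least 2-fold, and Scap, the SREBP escort, rose 1.86-fold. Acat2, Hmgcs1, Fdft1, Tm7sf2, Nsdhl, Hsd17b7 and Ebp rose by at least 1.5-fold and at most 1.73-fold. Stard4 and Scd1 rose as well, and Srebf1 fell. In all, 12 of 28 members rose (42.9%, against 17.3% of all genes tested) and 1 fell (3.57%, against 20.5%). Without the fold minimum 20 members were higher (71.4%, against 34.8% of genes) and 2 were lower (7.14%, against 28.3%). All null arrays lay above all wild-type arrays in 21 members (39.8% of genes) and below them in 3 members (32% of genes). The median log2 difference was 0.47 over the members and 0.07 over all genes, or 0.22 over the 21368 genes left without the filter on dim probes, which narrows the gap from 0.40 to 0.25. With quantile normalization 6 of the 12 rises (Hmgcs1, Fdft1, Hsd17b7, Ebp, Stard4 and Scd1) lay under the fold minimum, at 0.50 to 0.58. Then only 6 of 28 members were called higher and 1 lower, beside 2264 higher and 3043 lower of 14441 genes. The medians in that setting were 0.39 over the members and 0.01 over all genes. In bulk RNA a change in the RNA per cell and a change in the share of cells of some type cannot be told apart.

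The scale of this comparison depends on the centring. With the array median in place of the 75th percentile, the median of all genes moved from 0.07 to 0.22 and the share of higher genes among all calls from 45.8 to 56.9%. The members' median moved with it, to 0.61. The members' median lay 0.40 above that of all genes under both.

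**Figure D1:**
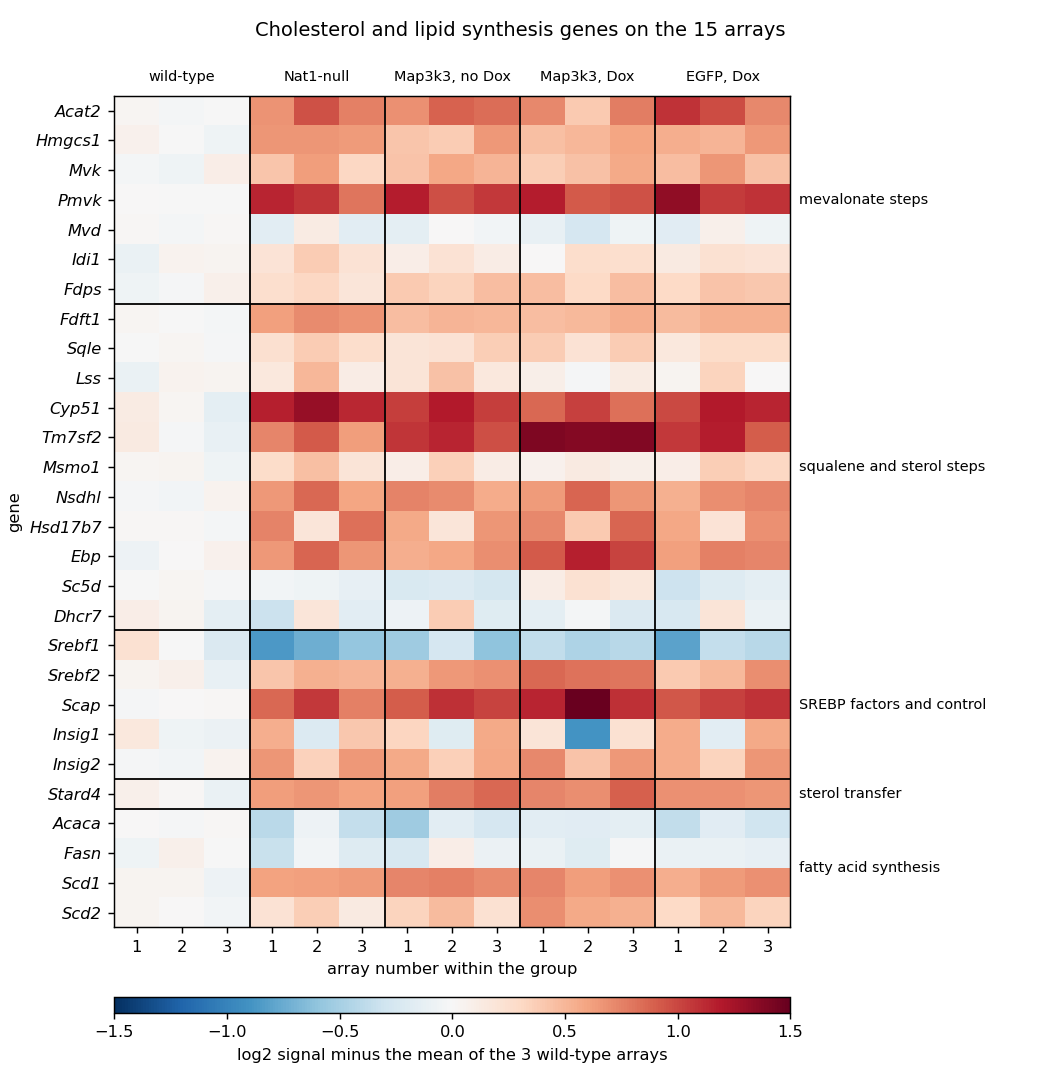
The 28 members (rows, by role) on the 15 arrays (columns, by group and array number), coloured by log2 signal minus the mean of the 3 wild-type arrays, red higher and blue lower. Rows such as Pmvk, Cyp51, Tm7sf2 and Scap are red across all 4 null groups, Srebf1 is blue, and Mvd, Sc5d, Dhcr7, Acaca and Fasn stay pale or blue.

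Of the 7 mevalonate genes 3 rose in null cells. Pmvk, which adds the second phosphate to mevalonate, read 5.13, 5.12 and 5.12 in wild-type cells, 6.27, 6.20 and 5.93 in null cells, 6.30, 6.10 and 6.19 in Map3k3 cells without Dox, 6.30, 6.05 and 6.08 with Dox, and 6.45, 6.18 and 6.21 in EGFP cells. All 12 arrays of the null lines lay above the wild-type arrays, and the null lines overlapped each other. Its null minus wild-type difference was 1.01 (SE 0.11, adjusted p = 5e-06), a 2.01-fold rise. Acat2, the thiolase that joins acetyl-CoA units at the start of the route, read -0.14, -0.19 and -0.17 in wild-type cells, 0.51, 0.79 and 0.59 in null cells, 0.52, 0.72 and 0.68 in Map3k3 cells without Dox, 0.56, 0.23 and 0.61 with Dox, and 0.92, 0.81 and 0.56 in EGFP cells. The wild-type arrays were lowest again, and array 2 of the Map3k3 cells with Dox was the lowest of the null lines. The difference between null and wild-type cells was 0.79 (SE 0.12, adjusted p = 9.5e-05). Hmgcs1, which forms HMG-CoA, read 6.20, 6.12 and 6.07 in wild-type cells and 6.79, 6.79 and 6.77 in null cells, with 6.50 to 6.78 on the other 9 arrays. All wild-type arrays lay below all arrays of the null lines, which overlapped each other, and the difference between null and wild-type cells was 0.65 (SE 0.08, adjusted p = 1.3e-05). The dimmer Hmgcs1 probe differed by 0.42 (SE 0.17, adjusted p over all probes 0.051), under the fold minimum.

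The other 4 mevalonate genes were not called. Mvk, the kinase of the preceding step, differed by 0.45, Idi1, the isomerase of the isoprene unit, by 0.27 and Fdps, which builds farnesyl diphosphate, by 0.24, each with an adjusted p under 0.05 but under 1.5-fold. Mvd, which removes the carboxyl group, differed by -0.06 (95% interval -0.26 to 0.14). Within the mevalonate steps, therefore, the differences ranged from -0.06 to 1.01.

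In the squalene and sterol steps 6 of 11 genes rose, and 8 had an adjusted p under 0.05, all of them higher in null cells. Fdft1, squalene synthase, read 3.67, 3.63 and 3.62 in wild-type cells, 4.26, 4.35 and 4.31 in null cells, 4.11, 4.15 and 4.14 in Map3k3 cells without Dox, 4.10, 4.12 and 4.19 with Dox, and 4.11, 4.18 and 4.18 in EGFP cells. Null arrays were the highest and wild-type arrays the lowest, with a clear gap between wild-type cells and all null lines. The difference between null and wild-type cells was 0.66 (SE 0.05, adjusted p = 3.6e-07). Cyp51, the demethylase that acts on lanosterol, read 1.10, 1.01 and 0.84 in wild-type cells, 2.15, 2.29 and 2.11 in null cells, 2.02, 2.17 and 2.03 in Map3k3 cells without Dox, 1.85, 2.02 and 1.81 with Dox, and 1.97, 2.18 and 2.12 in EGFP cells. Each of the 12 arrays of the null lines lay above the 3 wild-type arrays. The rise of 1.20 (SE 0.09, adjusted p = 3.5e-07), or 2.29-fold, had the largest size among the 28 members.

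Tm7sf2, a sterol reductase that acts after Cyp51, read 2.11, 1.96 and 1.87 in wild-type cells, 2.71, 2.90 and 2.61 in null cells, 3.06, 3.13 and 2.95 in Map3k3 cells without Dox, 3.39, 3.36 and 3.37 with Dox, and 3.05, 3.17 and 2.89 in EGFP cells. Wild-type arrays were lowest and Map3k3 arrays with Dox highest, without overlap with any other group. It rose by 0.76 in null cells (SE 0.09, adjusted p = 2.2e-05). Ebp, the sterol isomerase, read 4.05, 4.13 and 4.20 in wild-type cells, 4.78, 5.00 and 4.78 in null cells, 4.67, 4.70 and 4.82 in Map3k3 cells without Dox, 5.05, 5.30 and 5.14 with Dox, and 4.75, 4.88 and 4.86 in EGFP cells. The order of the groups was like that of Tm7sf2 at its ends, with wild-type cells lowest and Map3k3 cells with Dox highest. Ebp rose by 0.73 in null cells (SE 0.08, adjusted p = 1.3e-05).

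Nsdhl and Hsd17b7 encode the dehydrogenase and the reductase that help to strip methyl groups from the sterol ring. Nsdhl read 0.96, 0.94 and 1.03 in wild-type cells, 1.63, 1.84 and 1.57 in null cells, and 1.51 to 1.86 on the other 9 arrays, and rose by 0.70 (SE 0.09, adjusted p = 3.5e-05). Hsd17b7 lay between -0.04 and 0.01 in wild-type cells and read 0.74, 0.17 and 0.82 in null cells, 0.56, 0.17 and 0.65 in Map3k3 cells without Dox, 0.71, 0.39 and 0.86 with Dox, and 0.57, 0.20 and 0.67 in EGFP cells. Array 2 was the lowest of each null line and still above the wild-type arrays. The rise of 0.59 (SE 0.19, adjusted p = 0.018) lay at the fold minimum, and the call was lost without null array 1 (0.51, adjusted p = 0.066), null array 3 (0.47, adjusted p = 0.074) or wild-type array 3 (0.57, adjusted p = 0.047).

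The 5 sterol genes that were not called differed between null and wild-type cells by -0.10 to 0.31. These were Sqle, squalene epoxidase (0.29), Lss, lanosterol synthase (0.26), Msmo1, the methylsterol oxidase (0.31), Sc5d, a desaturase (-0.08), and Dhcr7, the reductase of the last step (-0.10). Sqle and Msmo1 passed the adjusted p, the others did not. The 95% intervals of Sc5d, -0.20 to 0.04, and Dhcr7, -0.46 to 0.27, excluded a 1.5-fold difference either way.

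Among the 5 SREBP genes 1 rose and 1 fell. Scap read 2.76, 2.78 and 2.80 in wild-type cells, 3.64, 3.84 and 3.54 in null cells, 3.69, 3.88 and 3.80 in Map3k3 cells without Dox, 3.92, 4.27 and 3.88 with Dox, and 3.71, 3.81 and 3.87 in EGFP cells. Every null line lay above the wild-type arrays, and the rise in null cells was 0.90 (SE 0.11, adjusted p = 1.4e-05). Srebf1, which encodes SREBP-1, read -1.06, -1.30 and -1.51 in wild-type cells, -2.16, -2.02 and -1.87 in null cells, -1.82, -1.55 and -1.89 in Map3k3 cells without Dox, -1.67, -1.76 and -1.71 with Dox, and -2.09, -1.65 and -1.70 in EGFP cells. Wild-type cells were highest on all 3 arrays, although their spread of 0.23 (SD) was wide beside the gap to the nearest array of the null lines. Srebf1 fell by 0.72 in null cells (SE 0.14, adjusted p = 0.00081). The call was lost with the array median subtracted (-0.58) and with the normexp background correction (-0.58), both just under the fold minimum.

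Srebf2, which encodes SREBP-2, and the retention factors Insig1 and Insig2 were not called between null and wild-type cells. Srebf2 read -0.12, -0.09 and -0.27 in wild-type cells and 0.26, 0.38 and 0.35 in null cells, a difference of 0.49 (SE 0.08, adjusted p = 0.00024). A dimmer Srebf2 probe differed by 1.57 (SE 0.13), and with the mean of its probes Srebf2 would be called higher, at 1.03. Insig2 differed by 0.55 (SE 0.11, adjusted p = 0.0012), just under the fold minimum, and was called without null array 2, at 0.66. With slide row as a term it was called at 0.75. The dimmer Insig2 probe differed by 0.61 (SE 0.16, adjusted p over all probes 0.0076), past the fold minimum. Insig1 differed by 0.25 (SE 0.32, 95% interval -0.45 to 0.95), an interval too wide to exclude a 1.5-fold rise.

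Stard4, a carrier that moves cholesterol between membranes, read 1.85, 1.79 and 1.67 in wild-type cells, 2.40, 2.43 and 2.38 in null cells, and 2.38 to 2.66 on the other 9 arrays. All null lines lay above wild-type cells, and the rise was 0.63 (SE 0.08, adjusted p = 1.6e-05). Without wild-type array 3 it was 0.58, just under the fold minimum. Its dimmer probe differed by 0.50 (SE 0.20, adjusted p over all probes 0.056).

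Of the 4 fatty acid genes only the desaturase gene Scd1 rose. Scd1 read 1.85, 1.85 and 1.73 in wild-type cells, 2.42, 2.42 and 2.45 in null cells, and 2.35 to 2.56 on the other 9 arrays. All wild-type arrays lay below all arrays of the null lines, which overlapped each other, and the rise in null cells was 0.62 (SE 0.06, adjusted p = 1.6e-06), or 0.58 and under the fold minimum without wild-type array 3. Scd2, a second desaturase gene, read 6.07, 6.04 and 6.00 in wild-type cells, 6.25, 6.41 and 6.18 in null cells, 6.38, 6.51 and 6.26 in Map3k3 cells without Dox, 6.73, 6.61 and 6.57 with Dox, and 6.33, 6.53 and 6.38 in EGFP cells. Wild-type cells were lowest and Map3k3 cells with Dox highest, and the null minus wild-type difference was 0.24 (SE 0.09, adjusted p = 0.027). Acaca, which makes malonyl-CoA, and Fasn, which builds palmitate from it, differed by -0.28 (adjusted p = 0.032) and -0.19 (adjusted p = 0.097). The enzymes that build the fatty acid chain were thus not called, and their differences were below 0. The other 2 probes of Acaca differed by -0.63 and -0.53, past the fold in the first of these.

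**Figure D2:**
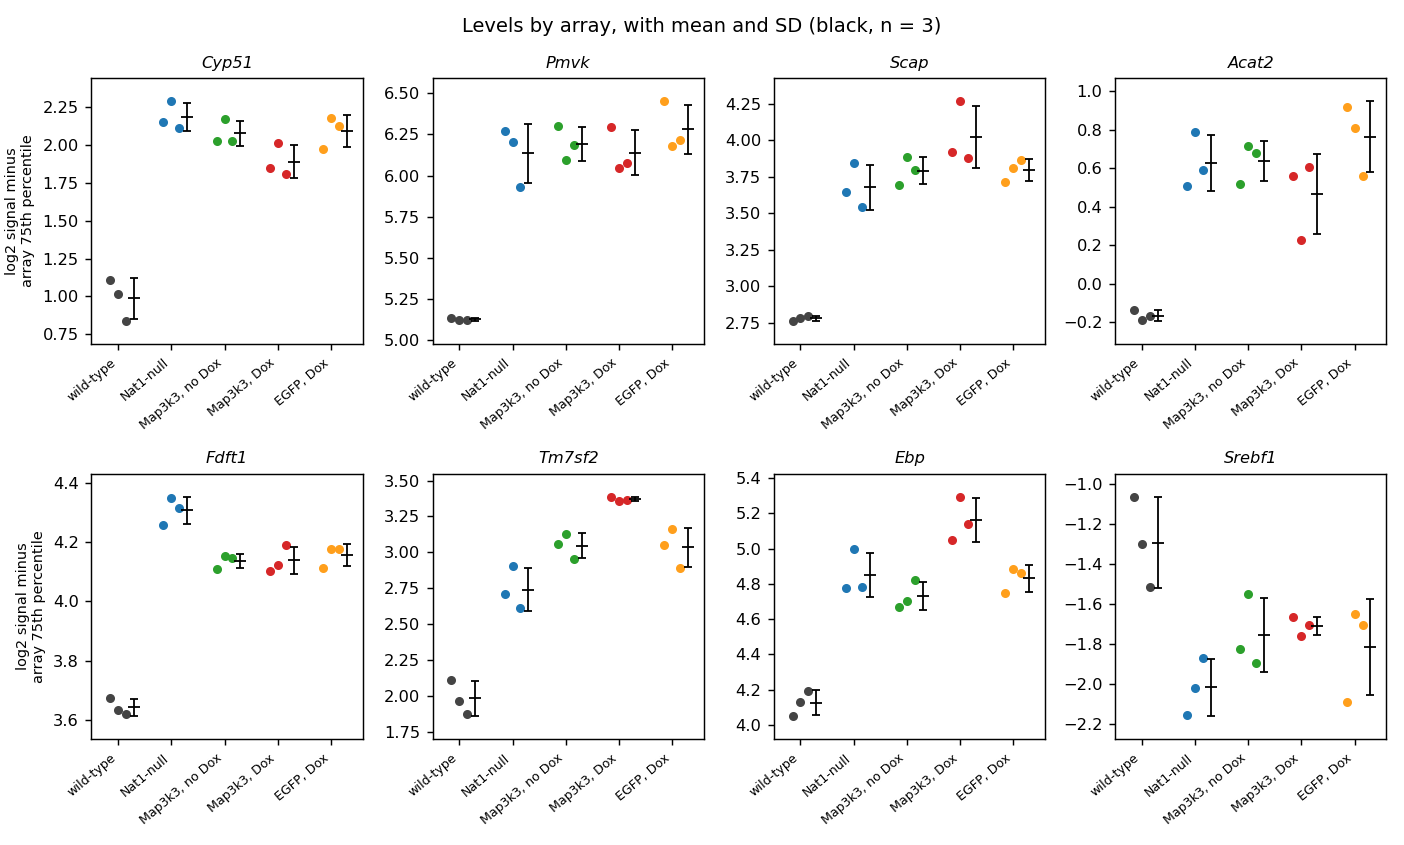
Levels of 8 members on each array (coloured points), with the mean and SD of each group (black, n = 3); the vertical axis is log2 signal minus the array's 75th percentile. Wild-type cells are lowest in 7 genes and highest in Srebf1, and Map3k3 cells with Dox are highest in Tm7sf2 and Ebp.

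Markers of other cell types also differed between null and wild-type cells, and their part in these results was not tested. Embryonic stem cell markers, summed on the linear scale relative to the 75th percentile, gave 687 to 736 on the wild-type arrays and 1180 to 1241 on the null arrays, with 6 of 8 genes called higher. Summed trophectoderm markers gave 185 to 190 in wild-type cells and 12.1 to 26.9 in null cells, with 6 of 7 measured genes called lower and Cdx2 not well above background on any null array. Fibroblast and feeder markers gave 177 to 182 and 105 to 121, with 6 of 8 lower and Col1a2 and Acta2 not well above background on any null array. Fn1, the fibronectin gene, made up 44.8 to 46.4% of this sum in wild-type and 94.0 to 94.8% in null cells, and without it the sums were 94.8 to 100.6 and 6.27 to 6.35. Primitive endoderm markers gave 0.523 to 0.570 and 0.637 to 0.755, or 0.473 to 0.509 and 0.165 to 0.215 without Sox7, with 1 of 6 called higher and 3 lower, and Gata6, Sox17, Foxa2 and Dab2 not well above background on any null array.

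The slide row was examined through the array that shares it with wild-type cells. On EGFP array 3, all 12 genes that rose in null cells lay above all 3 wild-type arrays, by 0.53 to 1.14 over the wild-type mean. For Cyp51 this gap was 1.14, for Pmvk 1.09 and for Scap 1.08. The 12 genes were picked on these same wild-type arrays, only 1 array is compared with them, and no share of all genes was obtained for this count. With the slide row as a term in the fit, 14 of 28 members were higher and 1 lower, beside 2429 higher and 2504 lower of 14441 genes.

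Across all null lines the same direction was seen. In 19 of 28 members (67.9%) all 12 arrays of the null lines lay above all 3 wild-type arrays, against 24.4% of all genes, and in 2 members, Srebf1 and Acaca (7.14%), they all lay below, against 21.9%. Averaged over the 18 enzymes after centring each gene on its mean over the arrays, wild-type arrays lay at -0.39 to -0.37 and the arrays of the null lines at 0.04 to 0.20. The 12 arrays of the null lines are not independent evidence of the loss of the gene, since they share the null genotype and possibly a cell line.

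The transgene lines were set beside the null cells they share a genotype with. No member was called in EGFP cells with Dox against null cells in limma, where 0.00692% of all genes were called. At an unadjusted p under 0.05 there were 3 of 28 members, beside 1050 of 14441 genes. None was called in Map3k3 cells without Dox against null cells either, where 0% of genes were called. There the unadjusted p was under 0.05 in 4 of 28 members, beside 2107 of 14441 genes. In both comparisons the 95% interval excluded a 1.5-fold difference either way for 27 of 28 members, the exception being Insig1. The largest difference was that of Tm7sf2, 0.29 (SE 0.09) in EGFP cells and 0.31 (SE 0.09) in Map3k3 cells, neither past the adjusted threshold. These comparisons share the null arrays, and Map3k3 cells without Dox lay on another slide than null cells.

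Induction of Map3k3 was compared within the Map3k3 line, setting Dox beside no Dox, and between lines, setting Map3k3 beside EGFP under Dox. The 2 comparisons share the Map3k3 arrays with Dox. None of the cholesterol and lipid genes passed the threshold: no member was called against the same cells without Dox in limma, while 17.9% of all genes were called, and none against EGFP cells, while 18.1% were. At an unadjusted p under 0.05 there were 6 of 28 members in the former, all higher with Dox. In the latter there were 7, of which Acat2 and Cyp51 were lower. Of 14441 genes tested, 7034 and 7136 passed this threshold, so the members' shares lay below those of all genes. The 95% interval excluded a 1.5-fold difference either way for 25 and 26 of the 28 members. Not excluded were Insig1 and Hsd17b7 in both and Ebp against cells without Dox. Median differences were 0.03 and 0.04 over the members, against -0.07 and -0.09 over all genes.

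Without a fold minimum, 4 members were higher with Dox than without it (14.3%, against 18% of all genes) and none lower (21.8% of genes). Against EGFP cells 4 were also higher (14.3%, against 18%) and none lower (23.5%). Sc5d, Ebp and Tm7sf2 were among these 4 in both comparisons, with Scd2 in the former and Srebf2 in the latter, and each share lay below that of all genes. Sc5d, the desaturase, read 2.09, 2.12 and 2.07 in wild-type cells, 2.05, 2.03 and 1.97 in null cells, 1.86, 1.89 and 1.84 in Map3k3 cells without Dox, 2.21, 2.32 and 2.26 with Dox, and 1.79, 1.90 and 1.95 in EGFP cells. Its Map3k3 arrays with Dox lay above every other array. The difference was 0.40 (SE 0.06, adjusted p = 0.00017) against cells without Dox and 0.38 (SE 0.06, adjusted p = 0.00023) against EGFP cells. Sc5d was singled out here after its values were seen.

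Ebp was higher with Dox by 0.43 (SE 0.08, adjusted p = 0.0018) against the same cells without Dox and by 0.33 (SE 0.08, adjusted p = 0.0084) against EGFP cells. Tm7sf2 differed by 0.33 (SE 0.09, adjusted p = 0.017) and 0.34 (SE 0.09, adjusted p = 0.013). Scd2 differed by 0.25 (adjusted p = 0.034) and 0.22 (adjusted p = 0.054), and Srebf2 by 0.20 (adjusted p = 0.068) and 0.30 (adjusted p = 0.011). The Srebf2 probes disagreed here: the dimmer probe differed by -0.40 (SE 0.13, adjusted p over all probes 0.035) with against without Dox. Against EGFP cells, the Srebf2 difference ranged from 0.01 to 0.39 over the alternative settings, with adjusted p in limma up to 0.96. Cyp51 differed by -0.19 (adjusted p = 0.12) and -0.20 (adjusted p = 0.096), and Acat2 by -0.17 (adjusted p = 0.27) and -0.30 (adjusted p = 0.062).

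**Figure D3:**
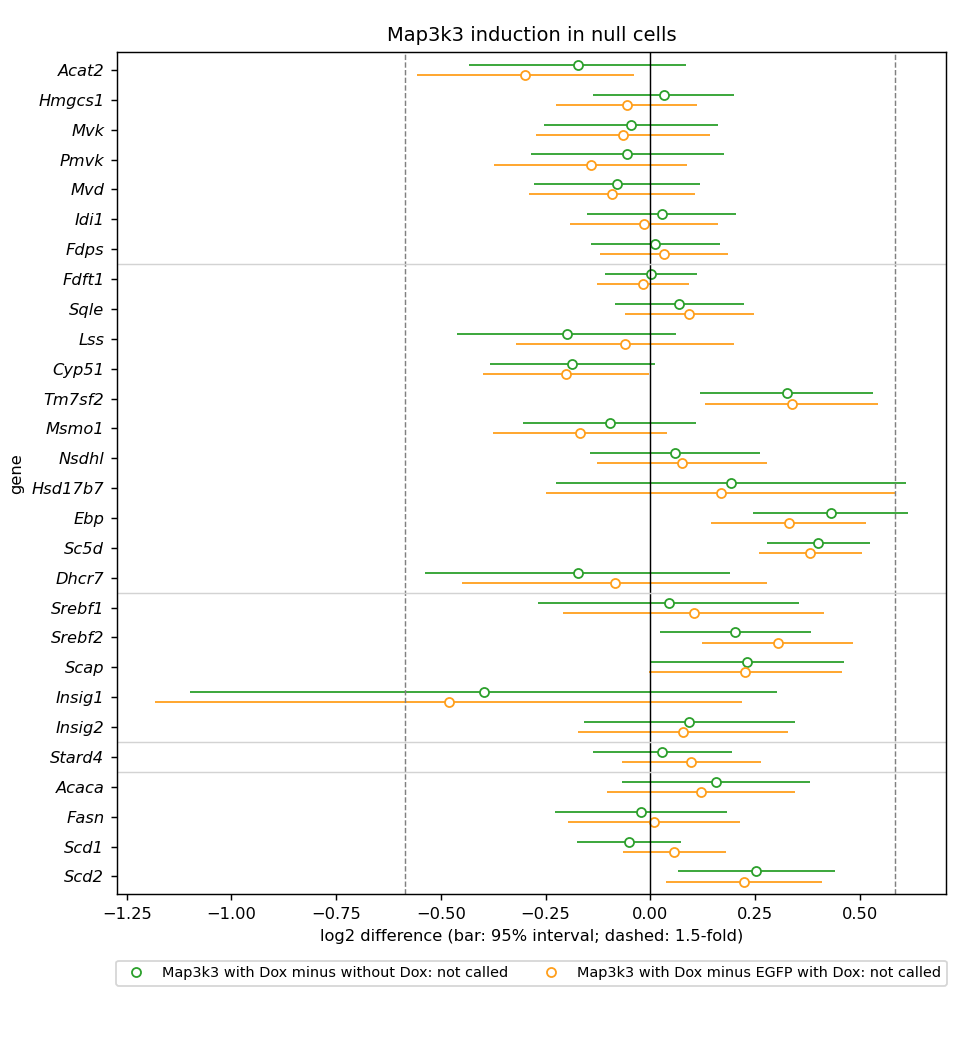
Log2 difference of each member in Map3k3 cells with Dox against the same cells without Dox (green) and against EGFP cells with Dox (orange), with the 95% interval as a bar and 1.5-fold as dashed lines. No member was called, and Ebp, Sc5d and Tm7sf2 sit to the right of 0 in both comparisons.

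Other genes moved with Dox on these arrays. Summed trophectoderm markers were 328 to 389 in Map3k3 cells with Dox, 11.9 to 23.3 without it and 10.9 to 23.0 in EGFP cells, with 6 of 7 genes called higher in both comparisons and Cdx2 and Gata3 not well above background on any array without Dox or of EGFP cells. Summed embryonic stem cell markers were 895 to 943 with Dox, 1140 to 1202 without it and 1158 to 1182 in EGFP cells, with 3 of 8 called lower against cells without Dox and 2 against EGFP cells. Primitive endoderm markers summed to 1.04 to 1.15 with Dox, with 5 of 6 called higher and 1 lower, and to 0.473 to 0.528 without it, where Sox17, Foxa2 and Dab2 were not well above background on any array. Fibroblast and feeder markers summed to 105 to 114 with Dox and 121 to 149 without it, with 3 of 8 called higher and 1 lower. At least 87.1% of each of these sums was Fn1, and without it they were 11.3 to 14.2 with Dox and 5.14 to 6.58 without it. Their part in the small differences of Ebp, Sc5d and Tm7sf2 was not tested.

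Induced Map3k3 cells were also compared with wild-type cells, which asks how far they remained from them. Tm7sf2 rose 2.62-fold (difference 1.39, SE 0.09, adjusted p = 1.4e-07), Scap by 1.24, Ebp by 1.04, Pmvk by 1.01 and Cyp51 by 0.90. In all 13 of 28 members were higher (46.4%, against 18.4% of all genes) and none was lower in limma (19.9% of genes), with Srebf1 lower at -0.42 (adjusted p = 0.023) but under 1.5-fold. Srebf2 (0.83), Insig2 (0.60) and Scd2 (0.60) were called here and not between null and wild-type cells. Hmgcs1 (0.51) and Fdft1 (0.49) were called between null and wild-type cells and were under the fold minimum here. Both comparisons use the same wild-type arrays, and the difference between null cells and induced Map3k3 cells was not tested. Group and slide cannot be told apart within these 2 groups. With slide as a term, estimated through the EGFP arrays, 12 members were higher: Acat2 (0.33, adjusted p = 0.21) and Scd2 (0.54) were not called and Hmgcs1 (0.64) was. With slide row as a term Acat2 (0.58) was not called. The Insig2 call was lost at 0.54 to 0.58 without wild-type array 2 or Map3k3 array 1 or 3, with normexp (0.58) and with quantile normalization (0.55), and the Scd2 call at 0.55 without Map3k3 array 1 and 0.58 without wild-type array 3. Hsd17b7 (0.66) was lost without Map3k3 array 3, at 0.56, and Acat2 (0.63) without Map3k3 array 1 or 3, at 0.58 and 0.56.

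**Figure D4:**
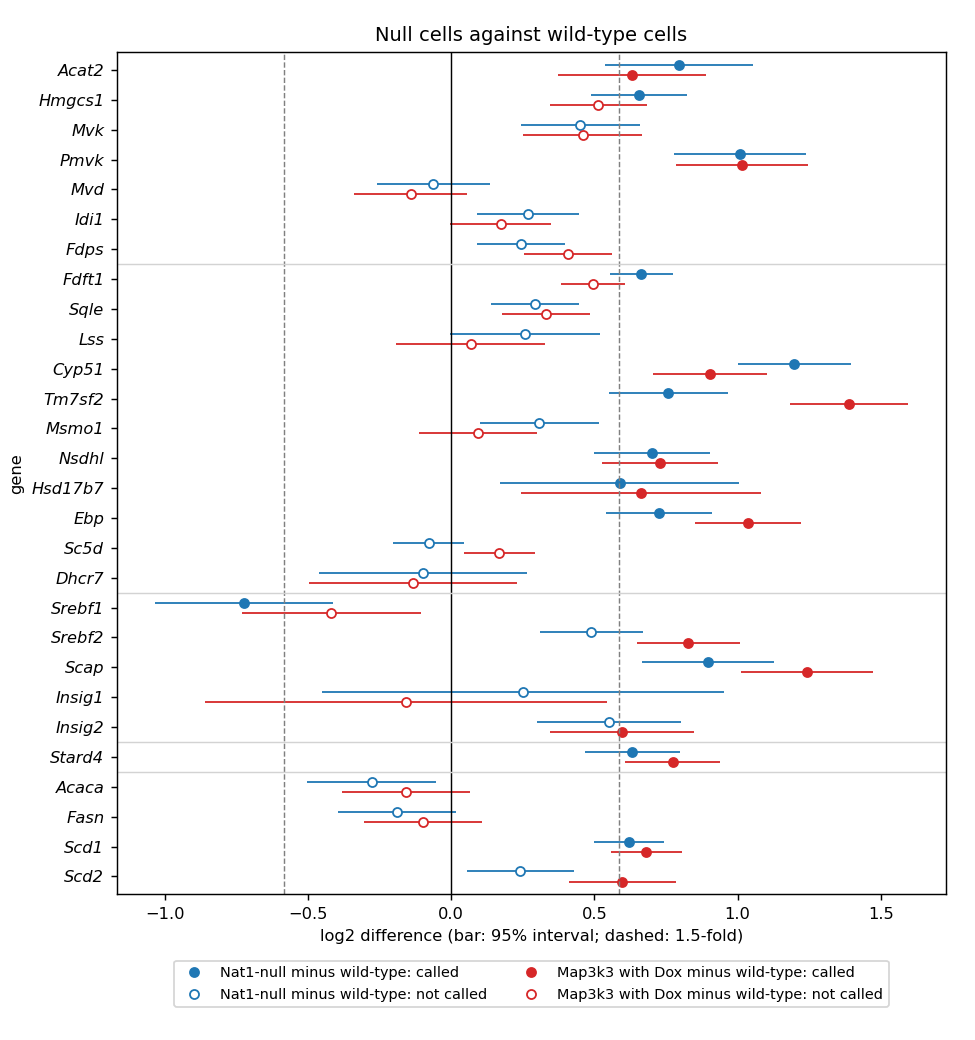
Log2 difference of each member from wild-type cells, in null cells (blue) and in Map3k3 cells with Dox (red), with the 95% interval as a bar, 1.5-fold as dashed lines, and filled points for called genes. Most points lie right of 0 in both comparisons, with Cyp51 at 1.20 and 0.90 and Tm7sf2 at 0.76 and 1.39.

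Some members varied with the array number within the null lines. Insig1 read 1.14, 0.92 and 0.89 in wild-type cells, 1.53, 0.78 and 1.39 in null cells, 1.30, 0.81 and 1.56 in Map3k3 cells without Dox, 1.18, 0.09 and 1.21 with Dox, and 1.54, 0.83 and 1.55 in EGFP cells. Array 2 was the lowest in each of the 4 null lines, and array 2 of the Map3k3 cells with Dox, which also had the lowest share of probes above background, was the lowest of all 15. Insig1 differed by -0.40 (SE 0.32, adjusted p = 0.35) with against without Dox and by -0.03 without that array, and by -0.48 (SE 0.32, adjusted p = 0.25) against EGFP cells and by -0.11 without it. With array number as a block, which takes out this shared variation, the second difference had adjusted p = 0.041 and stayed under 1.5-fold.

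Insig2 and Hsd17b7 were likewise lowest on array 2 in all 4 null lines, by 0.21 to 0.32 and 0.40 to 0.60 below the mean of arrays 1 and 3. Highest on array 2 in all 4 were Dhcr7, by 0.16 to 0.51, Msmo1, by 0.06 to 0.25, Cyp51, by 0.13 to 0.19, and Idi1, by 0.06 to 0.16. Such genes were common: 15.6% of all genes were lowest and 14.9% highest on array 2 in all 4 null lines, so the members' 3 and 4 of 28 lie near or below the share of all genes. For array 1 the shares were 2.79 and 2.13%, and for array 3 they were 3.59 and 5.25%. The labels do not say what the numbers stand for. These genes were picked out after their values were seen.

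**Figure D5:**
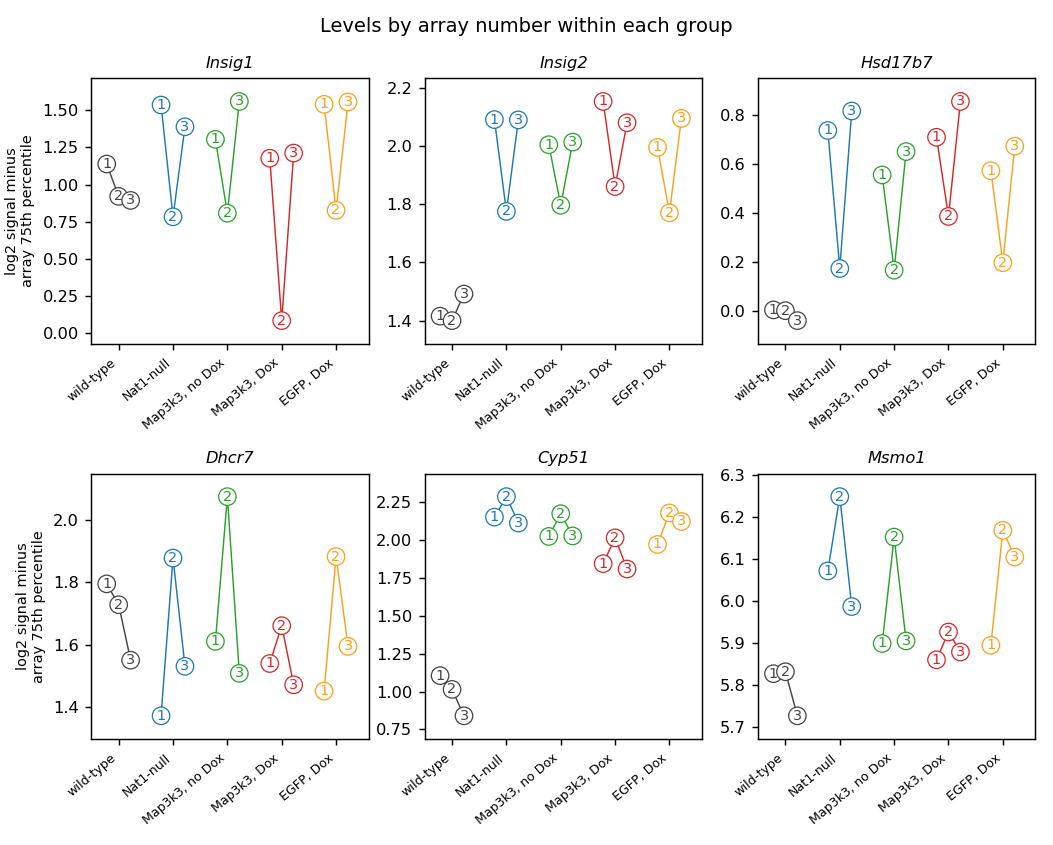
Levels of 6 members by array number (1 to 3 in circles) in each group; the vertical axis is log2 signal minus the array's 75th percentile, and lines only join the arrays of a group. In the 4 null lines array 2 is lowest for Insig1, Insig2 and Hsd17b7 and highest for Dhcr7, Cyp51 and Msmo1.

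Other genes of the pathway, taken from lists of genes that are not members, gave mixed results between null and wild-type cells. Lipa, the lysosomal lipase that frees cholesterol from its esters, fell by 2.46 (SE 0.18, adjusted p = 2.3e-07), with 2 of 3 null arrays well above background. Of the 2 proteases that cut SREBP, Mbtps1 fell by 1.11 (SE 0.05, adjusted p = 1.1e-08), and Mbtps2 was not called.

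Genes of sterol export and its LXR receptors included 3 of 6 that rose and 1 that fell, against 17.3 and 20.5% of all genes. Abca1, the pump that exports cholesterol, read -1.43, -0.85 and -1.19 in wild-type cells and 1.35, 0.91 and 1.01 in null cells. It rose by 2.24 (SE 0.19, adjusted p = 7.7e-07), more than any member, and the LXR receptor genes Nr1h3 and Nr1h2 rose by 1.26 and 0.85. Mylip, the gene of this list that fell, did so by 0.60. Abcg1, of the same list, read 1.32, 1.18 and 1.15 in wild-type cells and 0.73, 0.80 and 0.71 in null cells, and was not called. Of 12 genes that supply or modify fatty acids 4 rose, with the elongase gene Elovl6 at 1.18, the malic enzyme gene Me1 at 0.93 and Lpin1, a phosphatidate phosphatase gene, at 0.77 from 2 null arrays, since its spots on null array 2 gave no usable value, and 2 fell.

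With Map3k3 induced, Lipa rose by 1.04 against cells without Dox and by 1.23 against EGFP cells, with 2 of 3 EGFP arrays well above background. Apoe, a lipoprotein component, fell by 1.17 in both comparisons (adjusted p = 0.0019 and 0.0018). Elovl1, an elongase gene for very long chains, rose by 1.22 and 1.21. Of the LXR and efflux list 1 of 6 was called in each comparison (16.7%, against 17.9 and 18.1% of all genes), of the fatty acid list 1 of 12 (8.33%), and of the 2 proteases none in limma, with none at an unadjusted p under 0.05.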

How the data were processed

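RNA of 15 samples was hybridised to single-colour arrays, and the authors' scans were read with Feature Extraction 11.5.1.1, per the file headers. The deposited processed green signal is an intensity, already corrected for background by that software. The authors' deposited log2 values had a correlation of 1 with these values and served as an alternative. Here log2 signal was centred on each array's 75th percentile, spots of a probe were averaged, and a probe was kept if 1 or more groups had it well above background on 3 of 3 arrays. Symbols came from RefSeq accessions (28331 of 55681 probes), and the brightest passing probe stood for its gene. R 4.3.3 and limma 3.58.1 fitted a mean for each of 5 groups (residual degrees of freedom 10), two-sided, with Benjamini-Hochberg adjustment over 14441 genes, after a test on simulated data. Between null and wild-type cells that test recovered 77% of log2 changes of 1 and 91% of changes of 2, with 7 false calls. Its noise was drawn separately for each array, without the variation that equal array numbers share. The number of arrays limits the precision.

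The members, the lists, the rule for naming genes (members called in null against wild-type cells or on Map3k3 induction with every array's value, otherwise the largest difference of a role) and most alternatives were chosen with earlier results of these data known. The alternatives were the background correction (normexp on median signals, offset 50, since mean signals were not used here), 2 normalizations, the authors' values, 2 probe filters, the mean of probes, no fold minimum, fewer groups, replicate number, slide and row, and leaving out each array. Slide as a fixed term, single slides or rows, and arrays 1 and 3 only were added after seeing the data. Equal array numbers deviated together in every pair of the 4 null lines (correlation 0.11 to 0.63 over all genes) but not with wild-type arrays (-0.04 to 0.06). Some genes of the list on sterol uptake and synthesis are not reported here, and no count over that list is given.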

Additional observations from a re-analysis of the deposited data

How the results depend on the processing

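Over 6 comparisons and all settings, 3547 of 3612 values of single members stayed called or stayed uncalled. Another 30 lost a call, 35 gained one and 0 reversed a called direction. A member without a call in either fit could change sign and still be counted as kept. The count of called members left the range within 1.5 times of the reported one under 2 settings. With quantile normalization 7 members were called between null and wild-type cells (6 higher, 1 lower), beside 2264 higher and 3043 lower of 14441 genes. Hmgcs1, Fdft1, Hsd17b7, Ebp, Stard4 and Scd1 then lay at 0.50 to 0.58, and the cause was not tested. Without a fold minimum 22 members passed between null and wild-type cells, 20 between Map3k3 cells with Dox and wild-type cells, and 4 in each comparison of Map3k3 induction, by construction. The normexp correction left 10 calls there, without Hsd17b7 (0.51), Srebf1 (-0.58) and Scd1 (0.57), and centring on the array median gave 15, with Mvk (0.59), Srebf2 (0.63) and Insig2 (0.69) and without Srebf1 (-0.58). The mean of all probes of a gene gave 12, with Srebf2 (1.03) and without Hmgcs1 (0.54) and Stard4 (0.56). Leaving out each array in turn gave 10 to 14 called members between null and wild-type cells and 10 to 13 between Map3k3 cells with Dox and wild-type cells, and 0 in the other 4 comparisons. With replicate number as a block, 13 members were called in each comparison with wild-type cells and 0 in the others, and no member's call changed. The gap between the medians of members and all genes in null against wild-type cells ranged from 0.25, without the filter on dim probes, to 0.52, with slide row as a term. The chosen probes of the members were well above background on all 15 arrays.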
